A study of Mus musculus with 15 samples.

Results

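Chemokines and their receptors were described in cultured mouse macrophages that had been loaded with fatty acid, exposed to bacterial lipopolysaccharide (LPS), or both. Members were the genes whose annotated symbol begins with Ccl, Cxcl, Cx3cl, Xcl, Ccr, Ccrl, Cxcr, Cx3cr or Ackr followed by a number, in the authors' normalized value table. This gave 41 genes on 54 probes, of 13676 named genes in the table, and each gene was read from its brightest probe. Of the 41 members, 29 were ligands (20 of the CC and 9 of the CXC class) and 12 were receptors, of which 9 signal and 3 are atypical. Ccr1 and Ccr2, inflammatory receptors of monocytes and macrophages, had no probe under those names in the table and were not analysed here.

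The cells were thioglycollate-elicited peritoneal macrophages, which an irritant broth draws into the abdominal cavity, kept after adherence in medium with 0.5% serum and 5.5 mM glucose. Cells with or without a load of fatty acid were then exposed for 24 h to 10 ng/ml LPS or to its vehicle. The groups are named as in the labels: Unstim (vehicle, no fatty acid, 3 arrays), FA (fatty acid and vehicle, 4 arrays), LPS (4 arrays) and FA+LPS (4 arrays). Arrays are numbered by the 4 independent experiments, and experiment 2 has no Unstim array here. Which fatty acid was used, how it was loaded, and the strain, sex and age of the mice are not stated in the labels used here.

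Chemokines are small secreted proteins that bind receptors coupled to inhibitory G proteins and guide leukocytes along a gradient. The inflammatory ligands are made on demand when Toll-like receptors, such as the LPS receptor, switch on the transcription factor NF-kappa B and interferon signalling, while homeostatic ligands position cells in resting tissue. Macrophages are a major source of the ligands that draw in neutrophils and monocytes. Atypical receptors bind ligands without conventional signalling.

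Each value is a normalized log2 level of 1 probe, so a difference of 1 is a doubling, and levels are compared between arrays for 1 probe and never between probes. A probe counted as above background on an array when it exceeded the 95th percentile of probes that the authors had not retained, which lay at 6.02 to 6.07 on the normalized scale. Genes above background on at least 3 arrays were tested with limma across 12984 genes, and a gene is called when its Benjamini-Hochberg adjusted p is below 0.05. Of the members, 39 were tested (27 ligands and 12 receptors). Ccl21c and Ccl24, each above background on 2 arrays, fell just outside, and Ccl22, Ccr10 and Cxcl13, on 3 arrays each, fell just inside. Above background on every array were 16 of the 41 members, and 15 were above it on fewer than 8 arrays. In RNA from a whole culture, fewer cells of a type and less RNA per cell cannot be told apart.

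LPS alone raised 14 of the 27 tested ligands and changed 3 of the 12 receptors. In LPS against Unstim 1 ligand was lower and 12 were not called, and of the receptors 1 was higher and 2 were lower. Over all genes, 8.96% were called higher and 13.3% lower (22.3% in all). Higher genes thus made up 40.2% of the calls, and 60.0% when arrays were scaled by their median, a setting that called 12 ligands. The median log2 difference was 0.78 for the ligands, 0.01 for the receptors and -0.01 for all genes. The 14 members that were both called and changed at least 2-fold compare with 789 of the 12984 genes tested. All 18 called members kept their direction on both slides that hold the 2 groups and in each of the 3 experiments that do. The arrays of experiment 4 are spread over slides 3 (Unstim), 1 (FA) and 2 (LPS and FA+LPS). Within that experiment, LPS against no LPS is thus also a comparison of slides. Groups did not overlap for 15 higher and 5 lower members, beside 12.3% and 17.1% of all genes. With experiment as a block 15 members were called higher and 4 lower, beside 26.8% of all genes. Of the 15 higher members, 10 were above background on all Unstim arrays and 4 (Cxcl3, Cxcl9, Ccl17 and Ccl26) were above it on none.

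The ligands of Cxcr2, the receptor that brings neutrophils out of the blood, had the largest single difference, and all 3 measured ones rose. Cxcl1 lay at 6.30, 6.63 and 6.65 on the Unstim arrays of experiments 1, 3 and 4, and at 12.18, 13.03, 13.62 and 13.23 on the LPS arrays of experiments 1 to 4. The groups were far apart, and the LPS minus Unstim difference was 6.49 ± 0.41 (SE), a 90.0-fold rise (adjusted p = 3.25e-08). Cxcl2 lay at 6.34, 6.67 and 6.60 in Unstim and at 12.45, 12.36, 12.33 and 12.35 in LPS. Its LPS arrays differed less among themselves than the Unstim arrays did, and the difference was 5.84 ± 0.17 (57.2-fold, adjusted p = 9.81e-12). Cxcl3 was not above background on any Unstim array and reached 8.21, 7.21, 8.22 and 7.12 in LPS. Against the background level this is at least 3.17-fold higher (means 5.87 and 7.69, adjusted p = 1.06e-04).

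The 3 Cxcr2 ligands are close together on chromosome 5, and their promoter sequences are shown because they carry the same run of letters near the start of the gene. Promoters were taken from RefSeq, build GRCm38.p6, and cover 250 bases before to 50 bases after the annotated start. The capitals mark matches to GGGAA, any base, TTCC, a form of the kappa B site bound by NF-kappa B, and the stretch of 11 bases holds overlapping matches on both strands. Cxcl1 (chr5:90890995-90891294, plus strand) has it at -71 to -61 from the start, Cxcl2 (chr5:90903649-90903948, plus strand) at -97 to -87 and Cxcl3 (chr5:90785851-90786150, plus strand) at -73 to -63.
Cxcl1: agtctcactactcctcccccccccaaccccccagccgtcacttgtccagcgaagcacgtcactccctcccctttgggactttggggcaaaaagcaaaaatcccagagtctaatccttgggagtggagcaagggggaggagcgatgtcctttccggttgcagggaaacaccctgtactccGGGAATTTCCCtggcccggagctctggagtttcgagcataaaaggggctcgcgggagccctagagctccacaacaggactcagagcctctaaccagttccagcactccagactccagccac
Cxcl2: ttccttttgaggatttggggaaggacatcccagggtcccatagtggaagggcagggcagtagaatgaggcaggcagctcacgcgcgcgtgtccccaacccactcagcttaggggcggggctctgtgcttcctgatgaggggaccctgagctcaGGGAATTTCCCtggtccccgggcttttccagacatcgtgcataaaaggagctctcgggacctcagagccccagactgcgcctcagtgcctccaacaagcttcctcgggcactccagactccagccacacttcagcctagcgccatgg
Cxcl3: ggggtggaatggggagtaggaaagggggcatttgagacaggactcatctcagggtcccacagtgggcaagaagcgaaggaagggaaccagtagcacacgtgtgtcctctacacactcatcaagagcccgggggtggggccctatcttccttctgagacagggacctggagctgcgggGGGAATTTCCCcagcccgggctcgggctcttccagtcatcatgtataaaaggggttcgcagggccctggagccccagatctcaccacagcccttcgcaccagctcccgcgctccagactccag
The 11 letters in capitals are identical in the 3 promoters.

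A promoter sequence was matched for 30 of the 41 members. Ccl2, Ccl4, Ccl5, Ccl7, Cxcl16 and Ccl26, which rose with LPS, had none. This kappa B form, searched on both strands, was found in 4 of the 9 matched members that rose with LPS (Cxcl1, Cxcl2, Cxcl3 and Cxcl10), in 0 of the 3 that fell and in 0 of the 18 that were not called. Cxcl1, Cxcl2 and Cxcl3 are the genes shown above that lie close together, so their matches do not count as independent. Among all 27025 promoters of this length 96, or 0.355%, held the kappa B form. A looser form, GGG and CC with any 5 bases between, which includes every match of the first, was in 7 of the 9, 1 of the 3 and 12 of the 18, beside 50.4% of all promoters. TGANTCA, the letters bound by AP-1, was in 3 of the 9, 0 of the 3 and 1 of the 18, beside 7.93% of all promoters. These are matches of letters in a short window, and binding was not measured.

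The ligands of Ccr2, the receptor by which monocytes leave the bone marrow and enter tissue, rose in 2 of 4 cases. Ccl2 lay at 6.33, 6.36 and 6.15 in Unstim and at 11.09, 11.14, 11.07 and 11.83 in LPS. Ccl7, a close relative of Ccl2, lay at 6.32, 6.25 and 6.12 in Unstim and at 11.66, 11.51, 12.26 and 12.94 in LPS. For both genes the Unstim arrays were close to background, the groups were well apart and the LPS array of experiment 4 was the highest. Ccl2 rose by 5.01 ± 0.34 (32.1-fold, adjusted p = 6.51e-08) and Ccl7 by 5.86 ± 0.49 (58.1-fold, adjusted p = 5.69e-07). A second Ccl7 probe gave a difference of 4.73. Ccl12, a Ccr2 ligand of the mouse, did not pass the test at 0.78 ± 0.38 (adjusted p = 0.188). Its LPS arrays lay at 5.97, 6.17, 6.76 and 8.15, with experiment 1 not above background and experiment 4 the highest, and the groups overlapped. Ccl8 differed by 0.07 and was above background on only 1 LPS array, that of experiment 4, at 6.58.

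A run of 5 neighbouring CC ligand genes on chromosome 11, Ccl5, Ccl9, Ccl6, Ccl3 and Ccl4, was called in full, 4 higher and 1 lower. Ccl5, which attracts T cells and monocytes, lay at 6.51, 6.53 and 6.52 in Unstim and at 12.91, 12.83, 12.92 and 13.17 in LPS. The arrays within each group were nearly alike, so that a difference of 6.44 ± 0.13 (86.7-fold) had the smallest adjusted p of any member (1.40e-13). Ccl3 lay at 10.39, 10.45 and 10.24 in Unstim and at 13.57, 13.87, 13.76 and 14.26 in LPS. Ccl4 lay at 10.07, 10.28 and 9.75 in Unstim and at 13.54, 13.53, 13.85 and 13.72 in LPS. Both genes, which encode the macrophage inflammatory proteins 1 alpha and 1 beta, were thus well above background before LPS. Ccl3 rose by 3.50 ± 0.17 (11.4-fold, adjusted p = 2.26e-09) and Ccl4 by 3.63 ± 0.18 (12.3-fold, adjusted p = 2.50e-09).

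The other ligands of this run moved in opposite directions. Ccl9, a Ccr1 ligand of mouse macrophages, lay between 10.61 and 10.86 in Unstim and between 12.72 and 13.66 in LPS, a rise of 2.34 ± 0.23 (5.07-fold, adjusted p = 2.85e-06). Ccl6, also a Ccr1 ligand of the mouse, was the only ligand called lower. It lay at 9.47, 8.82 and 9.32 in Unstim and at 8.68, 8.51, 7.94 and 8.70 in LPS. The groups did not overlap, with a gap smaller than the spread of the Unstim arrays, and the fall was 0.75 ± 0.22 on the log2 scale (1.68-fold, adjusted p = 0.0255). Without Unstim replicate 1, Unstim replicate 4 or LPS replicate 3 it was no longer called (adjusted p 0.124, 0.0983 and 0.0707), nor with median scaling (-0.51, adjusted p = 0.667).

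The ligands of Cxcr3, a receptor of activated T cells and natural killer cells whose ligands are classical interferon targets, differed most between experiments. Cxcl10 was above background on 1 Unstim array, that of experiment 3 (6.02, 6.08 and 5.96), and lay at 8.83, 8.43, 11.34 and 13.01 in LPS. Experiments 3 and 4 were therefore more than 2 log2 units above experiments 1 and 2 among cells treated alike. The fitted rise of 4.38 ± 1.12 (20.9-fold) was called (adjusted p = 0.00983), though it is set against a group with 1 of 3 arrays above background, and a dimmer Cxcl10 probe gave 0.92 (adjusted p = 0.138). Cxcl9, not above background in Unstim, lay at 6.74, 6.94, 7.85 and 9.15 in LPS, the same order as for Cxcl10 except that the 2 lowest arrays changed places. It was at least 3.12-fold higher (means 5.99 and 7.67, adjusted p = 0.0265). A fit that took slide as a block gave 1.51 for Cxcl9 (adjusted p = 0.0622), and the difference was 0.71 and 1.88 within slides 1 and 3. Leaving out any Unstim array, or LPS replicate 3 or 4, also ended the call (adjusted p 0.0575 to 0.0775), as did median scaling (adjusted p = 0.104).

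The promoter of Cxcl10 is shown because it holds both a match to the NF-kappa B letters and a match to GAAA, any 2 bases, GAAA, a form of the interferon-stimulated response element. In this window (RefSeq, GRCm38.p6, chr5:92348840-92349139, minus strand, printed 5′ to 3′ along the gene) the first capitals are the interferon element at -213 to -204 from the start and the second are the kappa B form at -159 to -150.
Cxcl10: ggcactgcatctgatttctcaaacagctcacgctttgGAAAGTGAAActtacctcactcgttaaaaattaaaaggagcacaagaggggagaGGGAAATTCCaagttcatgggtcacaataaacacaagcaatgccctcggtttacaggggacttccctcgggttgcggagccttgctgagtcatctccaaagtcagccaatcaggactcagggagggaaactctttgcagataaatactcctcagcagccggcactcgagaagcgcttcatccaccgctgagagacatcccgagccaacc
The interferon element was in 1 of the 9 matched members that rose, 0 of the 3 that fell and 2 of the 18 not called, beside 3.49% of all promoters.

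The remaining ligands were mostly at background. Cxcl16, which is made as a membrane-bound ligand of Cxcr6 and also takes up oxidised lipoprotein, was the only 1 of 7 ligands listed as homeostatic to rise. It lay at 8.98, 9.30 and 9.20 in Unstim and at 12.04, 12.21, 12.23 and 12.07 in LPS. Both groups were tight and far apart, with a difference of 2.97 ± 0.10 (7.85-fold, adjusted p = 4.18e-11), and a dimmer Cxcl16 probe gave 1.60. Ccl17, a Ccr4 ligand that attracts T cells, was not above background in Unstim and lay at 6.78, 6.66, 6.82 and 6.72 in LPS, at least 1.64-fold higher (means 5.91 and 6.75, adjusted p = 8.22e-05). Ccl26 was called at a difference of 0.23, at least 1.03-fold (means 5.83 and 6.07, adjusted p = 0.0231). Its LPS arrays lay between 6.01 and 6.16, around the background level, and a block for slide (adjusted p = 0.0599) ended the call, as did leaving out Unstim replicate 3 or 4 or LPS replicate 4. The other 6 homeostatic ligands, among them Cxcl12 and Ccl25, differed by -0.27 to 0.01. Ccl27a, whose probe may not separate it from its near-identical gene copies, had the lowest of these. It differed by -0.27 ± 0.10 without passing (adjusted p = 0.0604), and passed with experiment as a block (adjusted p = 0.0432). A dimmer Ccl27a probe gave -0.04 without the block (adjusted p = 0.847). Over all 5 comparisons 21 members were called in none, with levels from 5.75 to 8.15.

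**Figure D1:**
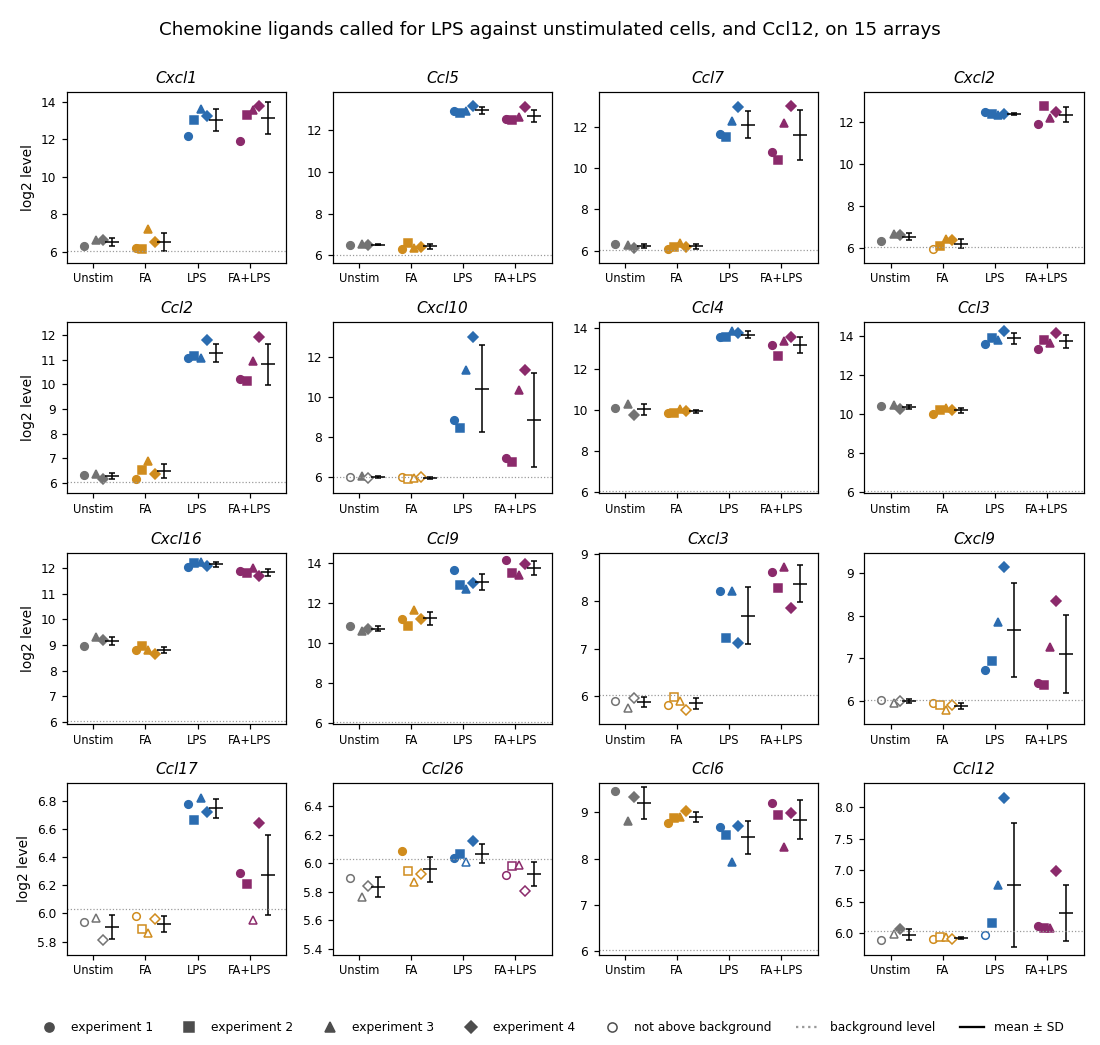
Normalized log2 level (vertical axis, a scale of its own for each gene) on each of the 15 arrays for the 15 ligands called between LPS and Unstim and for Ccl12, by group; shapes mark experiments, open symbols arrays not above background, the dotted line the background level and bars the mean ± SD (n = 3 for Unstim, 4 for the others). Cxcl1, Cxcl2, Ccl2, Ccl5 and Ccl7 rise from near background to above 10, while Cxcl10, Cxcl9 and Ccl12 spread by experiment.

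Among the receptors, LPS raised 1 atypical receptor and lowered 2 signalling ones. Ccrl2, an atypical receptor that binds chemerin, lay at 9.66, 8.80 and 9.52 in Unstim and at 11.13, 10.38, 10.32 and 11.23 in LPS. The groups did not overlap, and the rise was 1.44 ± 0.32 (2.71-fold, adjusted p = 0.00366). Cxcr4, the receptor for Cxcl12 that holds leukocytes in the bone marrow, lay at 8.21, 7.89 and 7.98 in Unstim and at 7.27, 6.55, 6.45 and 6.57 in LPS. Every LPS array was lower than every Unstim array, with that of experiment 1 above the other LPS arrays, and Cxcr4 fell by 1.32 ± 0.23 (2.49-fold, adjusted p = 6.81e-04). Cxcr1, which in humans is a receptor for neutrophil-attracting CXC ligands, lay at 7.10, 6.79 and 7.29 in Unstim and at 6.10, 6.26, 6.05 and 6.21 in LPS. It fell by 0.90 ± 0.13 (1.87-fold, adjusted p = 1.41e-04), to just above the background level.

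The other 9 receptors stayed near the background level and were not called, with differences from -0.02 to 0.10. Cx3cr1, the receptor for fractalkine that marks patrolling monocytes and many tissue macrophages, was above background on 4 of 15 arrays. It lay at 6.05, 5.94 and 5.96 in Unstim, at 6.00, 5.98, 5.88 and 6.14 in FA, at 6.11, 5.84, 5.93 and 5.96 in LPS and at 5.79, 6.03, 5.88 and 5.90 in FA+LPS, so no group stood apart. Cxcr2, whose 3 measured ligands rose, lay between 5.91 and 6.14 over all arrays.

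**Figure D2:**
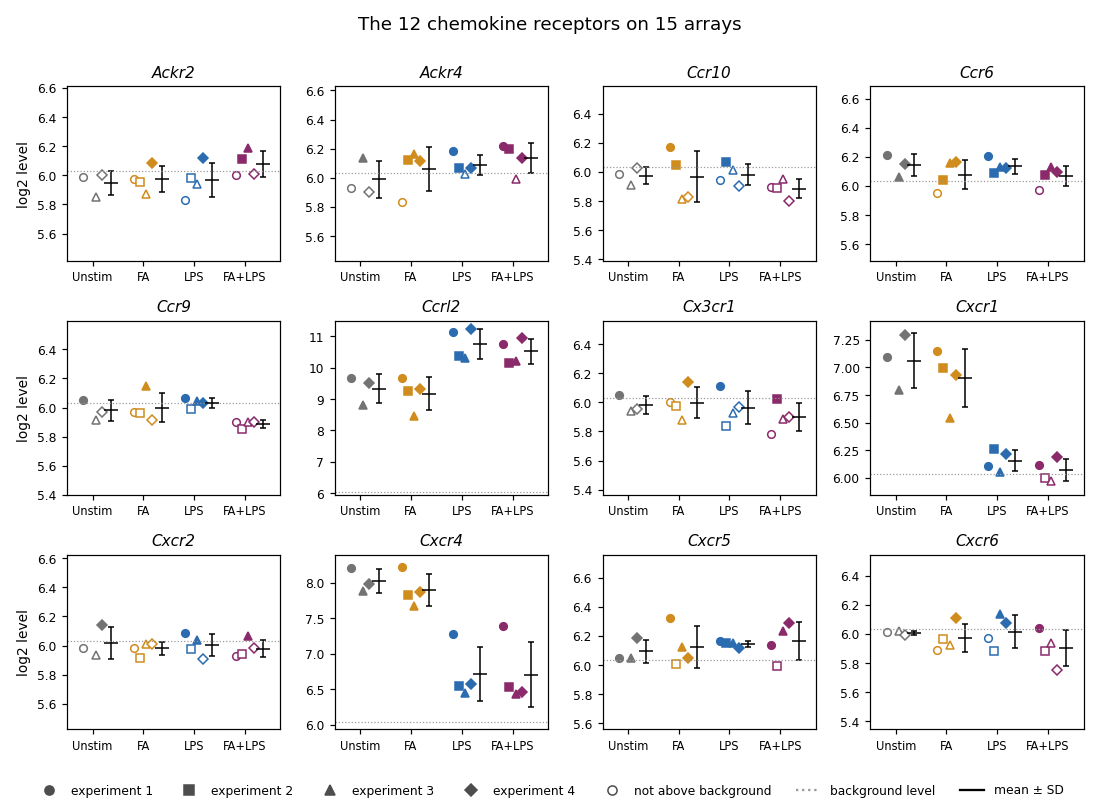
Normalized log2 level (vertical axis, a scale of its own for each gene) of the 12 receptors on each of the 15 arrays by group; shapes mark experiments, open symbols arrays not above background, the dotted line the background level and bars the mean ± SD (n = 3 for Unstim, 4 for the others). Ccrl2 is higher and Cxcr4 and Cxcr1 are lower in both groups with LPS, and the other 9 lie close to the dotted line.

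LPS given to fatty acid-loaded cells moved mostly the same members. In FA+LPS against FA, 11 ligands were higher and 0 lower, and 1 receptor was higher and 2 were lower, beside 8.39% of all genes higher and 11.4% lower (19.8% in all). Higher genes made up 42.4% of these calls, and 75.0% with median scaling, which called 10 ligands. All 14 called members kept their direction on each of the 3 slides and in each of the 4 experiments. Groups did not overlap for 16 higher and 4 lower members, beside 9.69% and 12.2% of all genes. The 2 LPS comparisons share no array, but their arrays come from the same experiments and the fit shares its estimate of the spread. They are therefore not independent. Cxcl1 rose by 6.59 ± 0.38 (96.1-fold, adjusted p = 1.09e-08), from 6.21, 6.18, 7.22 and 6.53 in FA to 11.89, 13.30, 13.53 and 13.76 in FA+LPS. Ccl5 rose by 6.26 ± 0.12 (76.7-fold, adjusted p = 6.97e-14), from 6.33, 6.60, 6.37 and 6.42 to 12.53, 12.50, 12.63 and 13.11. Cxcl2 rose by 6.13 ± 0.15 (70.1-fold, adjusted p = 1.66e-12), from 5.97, 6.07, 6.42 and 6.35 to 11.90, 12.75, 12.19 and 12.48. For each of these genes every FA+LPS array lay more than 4 log2 units above every FA array, and Cxcl1 in experiment 3 (7.22) was the highest FA array.

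Ligands of monocyte and macrophage receptors followed. Ccl7 lay at 6.10, 6.16, 6.37 and 6.17 in FA and at 10.79, 10.37, 12.19 and 13.00 in FA+LPS, a rise of 5.39 ± 0.45 (41.9-fold, adjusted p = 6.10e-07). Ccl2 lay at 6.17, 6.50, 6.87 and 6.36 in FA and at 10.23, 10.16, 10.94 and 11.95 in FA+LPS, a rise of 4.34 ± 0.31 (20.3-fold, adjusted p = 1.23e-07). For both, the FA+LPS arrays of experiments 1 and 2 were below those of experiments 3 and 4. Ccl3 lay at 10.00, 10.22, 10.28 and 10.22 in FA and at 13.35, 13.76, 13.61 and 14.13 in FA+LPS, a rise of 3.53 ± 0.16 (11.6-fold, adjusted p = 8.21e-10). Ccl4 lay at 9.85, 9.86, 10.03 and 9.95 in FA and at 13.13, 12.63, 13.35 and 13.56 in FA+LPS, a rise of 3.24 ± 0.16 (9.47-fold, adjusted p = 2.83e-09). Neither of these 2 genes had overlapping groups. Cxcl16 rose by 3.03 (8.15-fold), Ccl9 by 2.53 (5.78-fold) and Cxcl3 by at least 5.02-fold (means 5.85 and 8.37, adjusted p = 2.20e-06). Ccl17 was called with overlapping groups (0.35 ± 0.11, at least 1.17-fold, means 5.92 and 6.27, adjusted p = 0.0333), and leaving out any FA array, or FA+LPS replicate 1 or 4, ended the call, as did median scaling (adjusted p = 0.0678).

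The Cxcr3 ligands, called for LPS alone, did not pass here. Cxcl10 was not above background on any FA array (5.99, 5.91, 5.98 and 6.01) and lay at 6.97, 6.76, 10.32 and 11.33 in FA+LPS. That is at least 6.99-fold higher (means 5.97 and 8.85) with an adjusted p of 0.0672, which with experiment as a block was 0.0105. Cxcl9 was at least 2.09-fold higher (means 5.89 and 7.10, adjusted p = 0.0907), with 0.0206 for the block. Both genes were also called with an offset of 16 in the background correction (adjusted p = 0.0100 for Cxcl10 and 0.0111 for Cxcl9) and without LPS replicate 4. Cxcl10 was called with a stricter filter on dim probes too (adjusted p = 0.0494), and without FA+LPS replicate 1 or 2. The other alternatives called neither gene. All FA+LPS arrays lay above all FA arrays for both genes. Ccl6 differed by -0.05 ± 0.21 (adjusted p = 0.921) and Ccl26 by -0.03. With the block 13 ligands were higher and 1, Ccl27a, was lower (-0.25, adjusted p = 0.0647 without and 0.0389 with it), beside 24.8% of all genes called. The dimmer Ccl27a probe gave -0.05 without the block (adjusted p = 0.763).

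The receptors moved as they did without fatty acid. Ccrl2 lay at 9.68, 9.25, 8.46 and 9.31 in FA and at 10.77, 10.16, 10.21 and 10.94 in FA+LPS, a rise of 1.34 ± 0.29 (2.54-fold, adjusted p = 0.00361). Cxcr4 lay at 8.22, 7.82, 7.67 and 7.86 in FA and at 7.39, 6.53, 6.43 and 6.46 in FA+LPS, a fall of 1.19 ± 0.22 on the log2 scale (2.28-fold, adjusted p = 8.64e-04). Scaled by the array median instead, the Cxcr4 fall was 0.89 and was not called (adjusted p = 0.119). Cxcr1 lay at 7.15, 7.0, 6.54 and 6.93 in FA and at 6.12, 6.00, 5.97 and 6.19 in FA+LPS, a fall of 0.83 ± 0.12 (1.78-fold, adjusted p = 1.47e-04). Its FA+LPS arrays of experiments 2 and 3 were not above background, so the background level limits the size of this fall. No FA+LPS array overlapped the FA arrays for any of the 3 receptors.

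**Figure D3:**
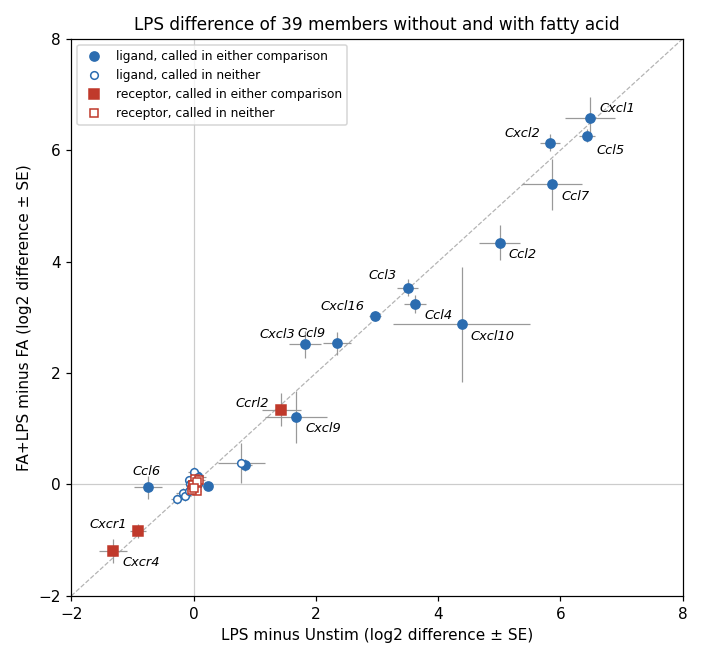
LPS minus Unstim (horizontal) against FA+LPS minus FA (vertical), both as log2 differences with SE bars, for the 39 tested members; filled symbols are called in either comparison, circles are ligands, squares are receptors, and the dashed line marks equal differences. Cxcl1, Cxcl2, Cxcl3 and Ccl9 lie above the line and Ccl2, Ccl7, Ccl4, Cxcl10 and Cxcl9 below it.

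Fatty acid without LPS changed no member past the threshold. In FA against Unstim 0 of 39 members were called, beside 0.0077% of all genes, which is 1 gene. By limma 2 ligands had an unadjusted p below 0.05, beside 374 of the 12984 genes tested. With experiment as a block 0 members were called, beside 0.0231% of all genes. Cxcl16 lay at 8.79, 8.97, 8.80 and 8.65 in FA, each below the lowest Unstim array (8.98), with a difference of -0.36 ± 0.10 (unadjusted p = 0.00238, adjusted p = 1.00). A dimmer Cxcl16 probe gave -0.15. Ccl9 lay at 11.19, 10.88, 11.68 and 11.21 in FA, each above the highest Unstim array (10.86), with a difference of 0.51 ± 0.23 (unadjusted p = 0.0428, adjusted p = 1.00). Groups that did not overlap were found for 1 member with FA higher and 2 with FA lower (Cxcl16 and Ccl8), beside 2.20% and 2.69% of all genes. Ccl8 lay around the background level, above it on 2 of 3 Unstim arrays and on no FA array. Over the 39 members the differences ran from -0.36 to 0.51 with a median of -0.03. Cxcl1, Cxcl2, Ccl2, Ccl5 and Ccl7, the ligands with the largest rises under LPS, differed by -0.33 to 0.20.

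In cells given LPS, fatty acid also moved no member past the threshold, but several ligands shifted in the same direction in every experiment. In FA+LPS against LPS 0 of 39 members were called, beside 0.685% of all genes (0.377% higher and 0.308% lower). By limma 8 members had an unadjusted p below 0.05, beside 1271 of the 12984 genes tested. Of the 14 ligands that LPS raised, 11 were lower on average in FA+LPS and 3 were higher. In each of the 4 experiments 8 of the 14 were lower and 2 were higher. Over all members 11 were lower and 5 higher in each experiment, beside 11.7% and 14.3% of all genes. The LPS arrays enter both this comparison and the one against Unstim, so the 2 sets of values are not independent.

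Ccl17 came closest to the threshold. It lay at 6.78, 6.66, 6.82 and 6.72 in LPS and at 6.28, 6.21, 5.95 and 6.64 in FA+LPS, where experiment 3 was not above background. The groups did not overlap, and the difference was -0.48 ± 0.11 (1.39-fold lower, adjusted p = 0.0644). With experiment as a block it was called (adjusted p = 0.0376), the only member so called, beside 2.65% of all genes with the block. Leaving out FA+LPS replicate 4, the highest of its group, the difference was -0.60 (adjusted p = 0.00237). Ccl4 differed by -0.50 ± 0.16 (adjusted p = 0.232). Its second probe gave -0.86 and was called (adjusted p = 0.0187), so the 2 probes of this gene lay on different sides of the threshold.

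Cxcl16 lay at 11.86, 11.79, 11.99 and 11.68 in FA+LPS, each below the lowest LPS array (12.04), with a difference of -0.30 ± 0.09 (adjusted p = 0.168, and 0.0554 with the block). The dimmer Cxcl16 probe gave -0.13 without the block (adjusted p = 0.964). Ccl5 differed by -0.26 ± 0.12 (adjusted p = 0.477) and was lower in all 4 experiments, by 0.06 in experiment 4 and by 0.29 to 0.38 in the others. Without FA+LPS replicate 4 its difference was -0.40 (adjusted p = 0.0383). The Cxcr3 ligands had the largest average shift and the widest error. Cxcl10 differed by -1.56 ± 1.03 (adjusted p = 0.765), by -1.86, -1.68, -1.02 and -1.67 within experiments 1 to 4, and Cxcl9 by -0.57 ± 0.47 (adjusted p = 0.865). With experiment as a block the adjusted p was 0.382 for Cxcl10 and 0.587 for Cxcl9. That block fits the same experiment shift in every group, whereas both genes spread by experiment mainly in arrays with LPS. For Cxcl10 the range was 5.91 to 6.08 without LPS and 6.76 to 13.01 with it. The block could therefore not take up this spread in full, and these SEs and adjusted p-values include it. The dimmer Cxcl10 probe gave -0.43 without the block (adjusted p = 0.941). Groups that did not overlap were found for 4 members, all lower in FA+LPS (Ccl17, Cxcl16, Ccl26 and Ccr9), beside 1.61% of all genes lower and 2.87% higher. Ccl26 and Ccr9 lay around the background level.

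Ccl9, Cxcl3 and Ccl6 had higher averages in FA+LPS than in LPS without passing the test. Ccl9 lay at 13.66, 12.90, 12.72 and 13.00 in LPS and at 14.17, 13.51, 13.43 and 13.97 in FA+LPS, a difference of 0.70 ± 0.21 (1.63-fold, adjusted p = 0.186, and 0.0532 with the block). It was higher in all 4 experiments, although the groups overlapped. Cxcl3 lay at 8.61, 8.28, 8.72 and 7.86 in FA+LPS, a difference of 0.68 ± 0.24 (adjusted p = 0.30), higher in all 4 experiments. Cxcl1 and Cxcl2, close to Cxcl3 on the chromosome but separated from it by Cxcl15, differed by 0.11 and -0.04. Each was higher in 2 experiments and lower in 2. Ccl6, the ligand that LPS lowered, differed by 0.39 ± 0.21 (adjusted p = 0.614) and was higher in all 4 experiments. Ccl2 and Ccl7 differed by -0.46 ± 0.31 and -0.50 ± 0.45 and were lower in experiments 1, 2 and 3 and higher in experiment 4.

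**Figure D4:**
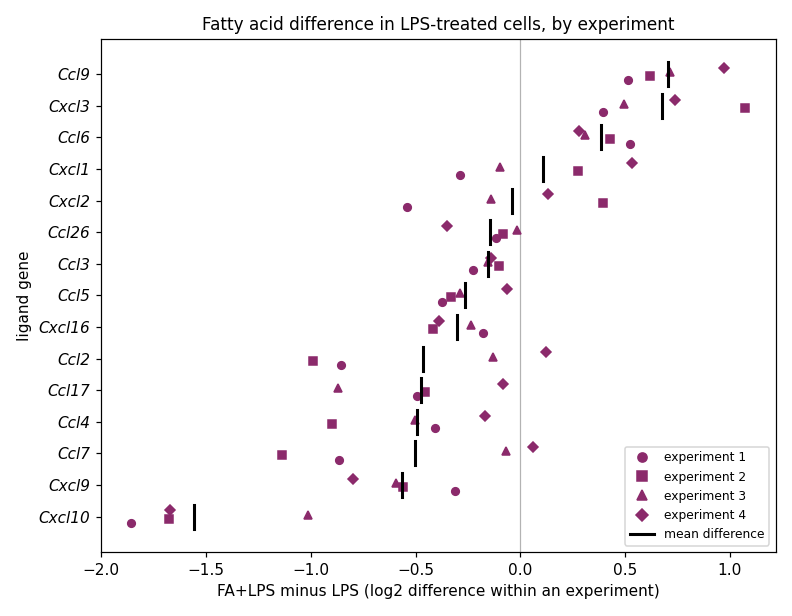
FA+LPS minus LPS log2 difference within each of the 4 experiments (points) for the 15 ligands called between LPS and Unstim, ordered by the mean difference (vertical ticks). Ccl9, Cxcl3 and Ccl6 lie to the right of 0 in every experiment, and Cxcl10, Cxcl9, Ccl4, Ccl17, Cxcl16, Ccl5, Ccl3 and Ccl26 to the left.

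The test of whether the LPS difference depended on fatty acid called 0 of 39 members, beside 0.0462% of all genes (0.0308% higher and 0.0154% lower). With experiment as a block 0 were called, beside 0.154% of all genes. By limma 3 members had an unadjusted p below 0.05 for this interaction, beside 632 of the 12984 genes tested. These members were Ccl17 (-0.49 ± 0.16, adjusted p = 0.678), Ccl26 (-0.27 ± 0.09, adjusted p = 0.795) and Ccl6 (0.70 ± 0.31, adjusted p = 0.968). That Ccl6, Cxcl9, Cxcl10 and Ccl26 were called for LPS in control cells and not in loaded cells is thus not shown as a difference between them, with Cxcl10 at -1.51 ± 1.52.

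Pf4, the platelet factor that is also named Cxcl4, fell outside the members by its symbol but was listed among chemokine genes under other names. It lay at 7.26, 7.74 and 7.22 in Unstim, at 6.90, 6.83, 7.04 and 7.28 in FA, at 9.53, 9.04, 8.97 and 8.43 in LPS and at 10.57, 10.23, 9.99 and 10.35 in FA+LPS. Every FA+LPS array was above every LPS array, and every LPS array above every array without LPS. LPS raised Pf4 by 1.58 ± 0.21 in control cells (3.00-fold, adjusted p = 6.26e-05) and by 3.27 ± 0.20 in loaded cells (9.66-fold, adjusted p = 1.85e-08). FA+LPS exceeded LPS by 1.29 ± 0.20 (2.45-fold, adjusted p = 0.00579). The interaction of 1.69 ± 0.29 did not pass (adjusted p = 0.0699). Cklf, the other gene of that list, was not called in any comparison.

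Neighbouring members did not all move together. In the gene order of the annotation, Ccl2, Ccl7, Ccl11, Ccl12 and Ccl8 follow each other on chromosome 11, and the first 2 of the 5 were called for LPS against Unstim. In the second run on that chromosome, from Ccl5 to Ccl4, Ccl6 was lower between neighbours that rose. Cxcl9 and Cxcl10, separated by Art3 on chromosome 5, both rose. Pf4 and Cxcl3 are neighbours, and both were higher in FA+LPS than in LPS in every experiment, Pf4 past the threshold and Cxcl3 not. Cxcr1 fell while its neighbour Cxcr2 stayed at background. Ccl17 rose and Ccl22, separated from it by Cx3cl1, differed by 0.07.

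Genes that act with chemokines changed in both directions under LPS. Of 25 tested regulators of chemokine transcription and mRNA decay, 14 were higher and 2 lower in LPS against Unstim, with a median of 0.59 beside -0.01 for all genes. For this and the lists that follow, the shares over all genes are 8.96% higher and 13.3% lower (22.3% called), and 26.8% called with experiment as a block. Irf7, an interferon regulatory factor, rose by 4.30 ± 0.32, Nfkbia, an inhibitor of NF-kappa B, by 3.00 ± 0.17 and Nfkbiz, a cofactor of NF-kappa B, by 1.93 ± 0.14. In FA+LPS against FA 16 were higher and 2 lower, beside 8.39% and 11.4% of all genes. In FA+LPS against LPS limma called 0 regulators, and 0 with experiment as a block. By limma 3 of them had an unadjusted p below 0.05, beside 1271 of the 12984 genes tested. Of 12 other chemoattractants and receptors, 3 rose and 2 fell with LPS, with a median of 0.06. The formyl peptide receptor Fpr2 rose by 6.76 ± 0.32, and the sphingosine phosphate receptor S1pr2 fell (-0.70 ± 0.16). Downstream of the receptors, 5 of 24 signalling genes rose and 4 fell (median -0.04). Among them were the kinase Jak2 (2.36 ± 0.09), the protein kinase C gene Prkcb (-2.17 ± 0.15) and the Rac activator Elmo1 (-1.74 ± 0.18). Pik3cg, a kinase activated by chemokine receptors, was the only gene of that list called in FA+LPS against LPS (0.52 ± 0.08, adjusted p = 0.00764).

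The lists for desensitisation, cleavage and presentation were mixed. Of 12 genes that switch receptors off, 1 rose and 2 fell (median -0.07), with Rgs10, a regulator of G protein signalling, at -1.33 ± 0.11. With experiment as a block 5 of these 12 were called, beside 26.8% of all genes. Of 14 proteases that cleave chemokines, 4 rose and 1 fell (median -0.01), with the metalloproteinases Mmp13 at 3.97 ± 0.35 and Mmp14 at 3.49 ± 0.23. Of 12 genes for the glycosaminoglycans that hold chemokines on cell surfaces, 3 rose and 5 fell (median -0.39). The syndecan Sdc4 rose (1.55 ± 0.14), and the heparanase Hpse fell (-2.19 ± 0.14). In FA+LPS against LPS limma called 0 genes of these 3 lists. At an unadjusted limma p below 0.05 were 3, 2 and 2 of them, beside 1271 of the 12984 genes tested. With experiment as a block 2, 2 and 1 were called, beside 2.65% of all genes.

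Macrophage genes were above background throughout, with 9 of 10 measured markers above it on every array of each group and a 10th, Fcgr1, on 11 of 15 arrays. Of these 10, limma called 4 higher and 3 lower in LPS against Unstim, with Cd14 at 1.88 ± 0.26 and Tyrobp at -1.69 ± 0.26, and 4 higher and 2 lower in FA+LPS against FA. Genes used as markers of other cells moved with LPS in places. The summed signal of 7 measured neutrophil markers was 688 to 806 in Unstim, 717 to 783 in FA, 2886 to 5472 in LPS and 3566 to 8400 in FA+LPS. Of the 7, 3 were called higher in LPS against Unstim, Lcn2 (5.58 ± 0.31), S100a8 (1.09 ± 0.22) and Camp (0.33 ± 0.09), and Ltf was lower (-0.53 ± 0.12). The same 4 were called in the same directions in FA+LPS against FA, and S100a8 was higher in FA+LPS than in LPS by 1.11 ± 0.20 (adjusted p = 0.0186). Camp, Ltf, Mmp8, Elane and Mpo averaged 5.97 to 6.17, near the background level, as did Cxcr2. Lcn2 and S100a8 averaged 9.06 and 9.28. For 3 T and NK cell markers the sum was 1504 to 2242 in Unstim, 1142 to 2586 in FA, 774 to 1096 in LPS and 638 to 1061 in FA+LPS. Il7r, the gene of these that changed, fell (-1.10 ± 0.27), and Cd2 and Cd247 averaged 6.13 and 6.16.

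The other marker lists changed through single genes. Dendritic cell markers summed to 595 to 630 in Unstim and 789 to 1304 in LPS, with Batf3 the only 1 of 9 called (2.18 ± 0.28) and Flt3, Zbtb46 and Clec9a near background. Markers of mesothelial cells and fibroblasts summed to 563 to 596 in Unstim and 856 to 1106 in LPS, with Dcn the only 1 of 8 called (2.26 ± 0.23). Endothelial markers summed to 862 to 979 in Unstim and 391 to 519 in LPS, with Vwf lower (-1.89 ± 0.22) and Pecam1 and Cdh5 near background. Eosinophil and mast cell markers summed to 189 to 194 in Unstim and 213 to 352 in LPS, and B cell markers to 303 to 334 and 272 to 308. The part of these genes in the chemokine results was not tested.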

How the data were processed

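Biotin-labelled cRNA was hybridised to 15 Illumina mouse bead arrays. The authors deposited log2 signals of 45281 probes, not normalized between arrays and without detection p-values, and a table of log2 values for 25784 of them. The latter equals a quantile normalization of the former to within 0.000949. The software that made them is not given in the sources used here.

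Signals were returned to the linear scale, corrected by normexp (offset 50), quantile normalized over all probes and logged again. Because the planned detection p-values were absent, background was taken from the 19497 probes not retained. This left 24195 probes, or 12984 genes with the brightest probe of each. Probes were named from the platform annotation (21476 retained probes with 1 symbol, 10 with several, 4298 without). Models were fitted with limma 3.58.1 in R 4.3.3 with group as the only term over 15 arrays (11 residual and 3.20 prior degrees of freedom), with Benjamini-Hochberg adjustment over all genes. SE is that of the fit, and the number of arrays limits the precision. A bound ("at least") sets the brighter group's mean against the background level.

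The pairing comes from the experiment numbers in the labels. Deviations from group means correlated at a median r of 0.222 over 21 pairs of arrays of 1 experiment and -0.0745 over 63 other pairs. Slide, the chip number in the labels, was tried as a block too. Further alternatives were the authors' table, median scaling, another offset, other filters, the mean of a gene's probes and leaving out each array. The raw 95th percentile of a log2 signal was 8.53 to 9.57 on 14 arrays and 7.77 on FA replicate 1. No arrays were copies of each other, and the closest pair differed by a median of 0.0966. Data were simulated with 200 of 12984 genes changed, while limma called 2892 for LPS against Unstim in the real data. In that simulated setting for LPS against Unstim, 83.6% of genes changed 2-fold and 37.3% of those changed 1.5-fold were called. For FA+LPS against LPS these shares were 88.1% and 47.8%.

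Values on every array are given for the 8 ligands with the largest called LPS difference, the called receptors, Ccl2, Cxcr4 and Cx3cr1. Other members given array by array were added after their values were seen. The members and all lists were chosen with earlier results of these data known.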

Additional observations from a re-analysis of the deposited data

Results flagged for a closer look

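Among 57 groups of 4 arrays checked over the 19 members of the named sets, 3 had 1 array far from the other 3, by Dixon's criterion at the 95% level, a gap to the nearest array set against the group's range. Chance gives this in about 1 of 20 groups. Ccl2 in LPS replicate 4 lay at 11.83, with the others between 11.07 and 11.14. Cxcr4 in LPS replicate 1 lay at 7.272, with the others between 6.448 and 6.566. Cxcr4 in FA+LPS replicate 1 lay at 7.389, with the others between 6.429 and 6.529. Both Cxcr4 arrays come from experiment 1, whose Cxcr4 levels were also the highest of the Unstim group (8.21) and of the FA group (8.22). Without LPS replicate 1 or FA+LPS replicate 1, Cxcr4 was still called lower in both LPS comparisons. The interaction called no member.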

How the results depend on the processing

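Of 32 called pairs of a member and a comparison, 27 were called under each of the 24 alternatives that gave a value. The other 5 were Ccl26, Ccl6 and Cxcl9 for LPS against Unstim and Ccl17 and Cxcr4 for FA+LPS against FA. No called difference changed sign. Scaling by the array median lowered the calls over all genes from 2892 to 927 for LPS against Unstim, from 2567 to 925 for FA+LPS against FA and from 89 to 6 for FA+LPS against LPS. The share of higher calls went from 40.2% to 60.0% and from 42.4% to 75.0% in the first 2. It ended each of those 5 calls. Under it 12 ligands were called for LPS against Unstim and 10 for FA+LPS against FA. For FA+LPS against LPS the ligands called rose from 0 to 1 (Ccl4) with the mean of a gene's probes and to 1 (Ccl17) with experiment as a replicate block. With that block 344 genes were called in place of 89, and with slide as a block 166. Beside those given above, the experiment block changed no other call of a member. Leaving out 1 array at a time gave 12 to 16 ligands for LPS against Unstim, 10 to 13 for FA+LPS against FA and 0 to 2 for FA+LPS against LPS (Ccl17 and Ccl5 without FA+LPS replicate 4), with 3 receptors in each LPS comparison. It gave 0 members for FA against Unstim and the interaction. With no detection p-values, members near background can hide changes, and 15 of the 41 members were above it on fewer than 8 arrays.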
